A study of Mus musculus with 48 samples.

Results

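The comparison described here sets liver of female C57BL6/J mice after 12 weeks on a regular diet (RD, standard rodent chow) against liver of females after 2 weeks on the same diet. The members were chosen by the tissue, diet, sex and time labels alone, and they are 6 of the 48 libraries of the series. The 12-week group holds libraries 5, 7 and 8, from mice of about 20 weeks of age, and the 2-week group holds libraries 1, 2 and 4, from mice of about 10 weeks. Diets began at 8 weeks of age, the food was given freely, and no allele or drug was part of either group. The 2 times are separate cohorts, so time on the diet, age and cohort cannot be told apart. The wider study also gave both sexes a diet rich in fat (HFD), in which fat supplied 45% of calories, and sampled visceral fat. It holds 16 groups of 3 libraries. The labels number the libraries but do not say that each came from a separate animal, so p-values measure the spread between these samples.

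The liver of the adult mouse is sexually dimorphic. Pituitary growth hormone, secreted in pulses in males and more continuously in females, acts through its receptor and STAT5 to set which cytochromes P450, sulfotransferases and secreted carrier proteins hepatocytes make. Major urinary proteins (MUPs) are secreted by the liver into blood, pass into urine and carry pheromones, and in many strains males make more of them than females.

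Poly(A)-selected, strand-specific libraries gave 65.71 to 78.27 M expected counts each. All 15 hepatocyte markers examined had 95% intervals of the time difference inside a log2 window of 1 either way. The Y-linked gene Ddx3y was at or below 0.637 counts scaled to library size (CPM) in every library. Pairs of 12-week libraries differed by an SD of 0.351 to 0.425 on the log2 scale over 10930 genes, pairs of 2-week libraries by 0.262 to 0.321, and pairs across the times by 0.359 to 0.438. The cohorts stood little further apart than 12-week libraries did from each other. Library 8 at 12 weeks carried high interferon, MHC class II and macrophage transcripts. Libraries 2 and 4 at 2 weeks carried transcripts such as Krt19, Muc1 and Dmbt1, and library 1 at 2 weeks carried a little RNA of adipocyte genes. Their values are given beside the results they touch.

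No gene passed the test. With edgeR's quasi-likelihood test and Benjamini-Hochberg adjustment, 0 of 15897 genes had an adjusted p under 0.05, and the smallest adjusted p was 0.114, for Cyp3a44. At an unadjusted p under 0.05 there were 872 genes, 5.49% of those tested, of which 459 (2.89%) were higher and 413 (2.6%) lower at 12 weeks. DESeq2 on the same counts called 58 genes, 0.365% of those tested, 25 higher (0.157%) and 33 lower (0.208%). In 47 of the 58 the CPM values of the 2 times did not overlap. Over all genes 8.37% were higher and 9.01% lower without overlap. The 58 were picked for a difference in these same libraries, so their lack of overlap is no separate evidence. The fold changes below are therefore given as values with their standard errors (SE), and each DESeq2 adjusted p is named as such.

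The absence of calls came with a measured precision. The median SE of a log2 fold change was 0.235 over all genes and 0.187 over the 10930 genes with a mean log2 CPM of at least 1. Among those 10930 genes the 95% interval of the change lay within a log2 window of 1 either way for 9892 genes (90.5%). An estimate of at least 1 in size was made for 113 of them, 46 higher and 67 lower at 12 weeks. The time values did not overlap for 21 of the 46 (8.37% of all genes were higher without overlap) and 52 of the 67 (9.01% lower). Choosing genes by a large estimate in the same values itself makes overlap less likely.

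Of the 20 genes with the lowest p values 7 were higher and 13 lower at 12 weeks. They include the male-biased genes Hsd3b5 and Susd4, several MUP genes, Cyp3a44 and the B cell gene Ighd, all lower, and many genes on none of the lists, such as Pcbp4, Serpina7 and Cyth1, which were higher. Values of 12 of the genes described below, picked after they were seen, are plotted library by library.

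**Figure D1:**
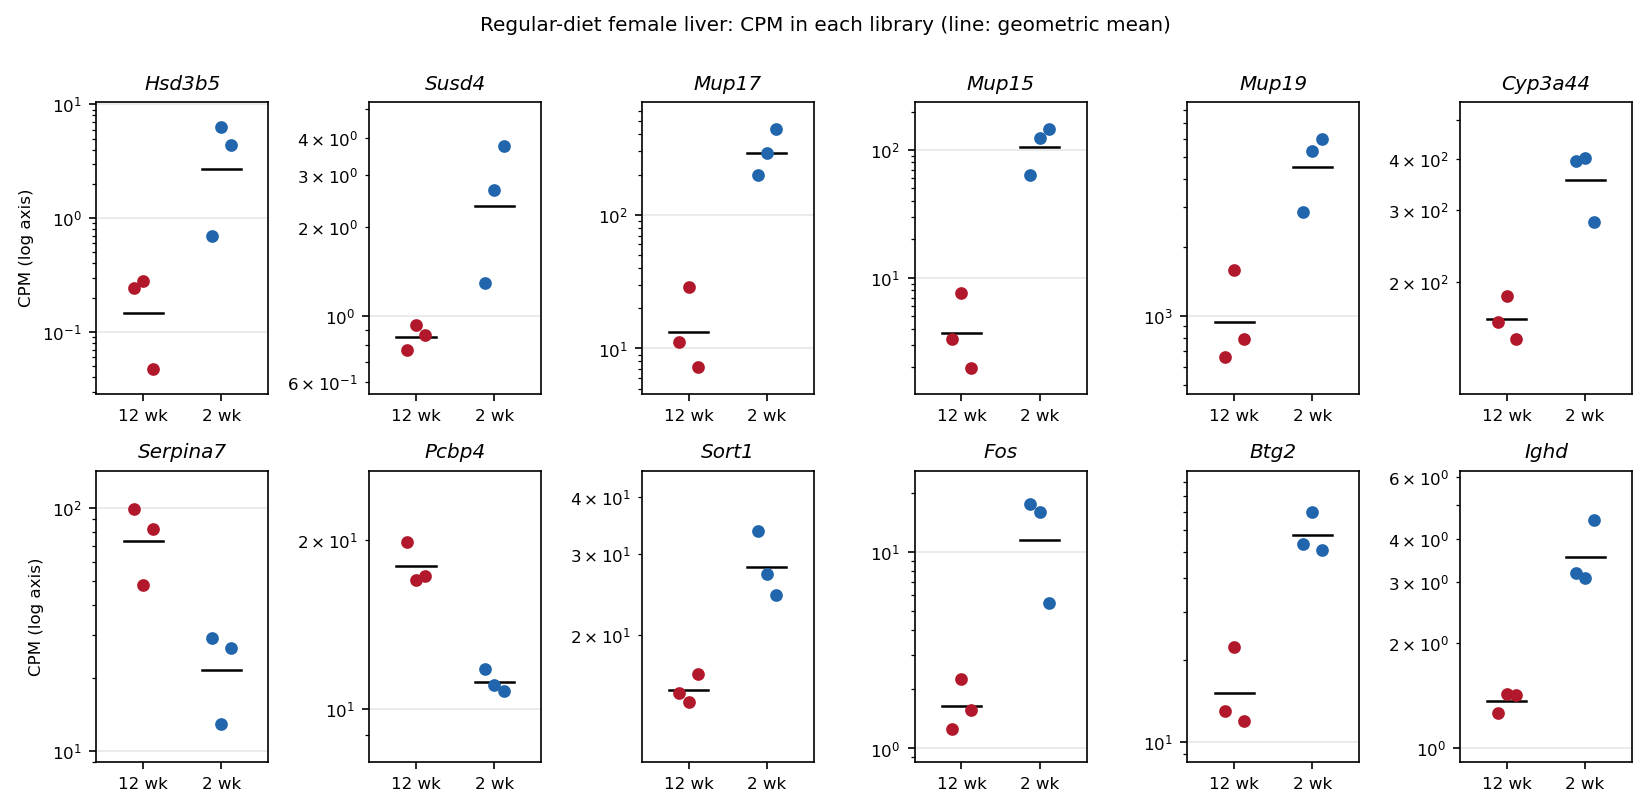
CPM of 12 genes (log axis) in each regular-diet female liver library, with 12-week libraries in red left of 2-week libraries in blue and a line at the geometric mean. In all 12 genes the values of the 2 times do not overlap; Serpina7 and Pcbp4 are higher at 12 weeks and the other 10 lower.

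The male-biased genes were examined first. None of the 39 members tested passed edgeR's test (0.0% of all genes were called). In 14 of them every 12-week value lay below every 2-week value, against 9.01% of all genes tested, and in 0 of them the reverse held, against 8.37%. Their median log2 fold change was -0.55, beside -0.0021 over all genes. DESeq2 called 6 members, all lower, beside 0.208% of all genes called lower. The 6 were Hsd3b5, Susd4, Mup1, Mup11, Slc22a28 and Cyp4a12a.

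Hsd3b5 encodes a steroid reductase of the 3β-hydroxysteroid dehydrogenase family, made in male mouse liver. It lies on chromosome 3 at 98618634 to 98630252 (GRCm38, minus strand). Its CPM was 0.246, 0.278 and 0.0474 in 12-week libraries 5, 7 and 8, and 0.696, 6.3 and 4.41 in 2-week libraries 1, 2 and 4. All 12-week values were lower, and library 1 was the lowest at 2 weeks. The log2 fold change was -4.35 ± 0.78 (SE), with an edgeR adjusted p of 0.203 and a DESeq2 adjusted p of 6.8e-06. With 1 library left out the edgeR adjusted p was 0.0085 without 2-week library 1 and 0.142 to 0.545 without each of the others. Without 2-week libraries 2 and 4 the log2 fold change was -1.90 (edgeR adjusted p 1).

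Susd4, a complement inhibitor with sushi domains, had 0.767, 0.932 and 0.864 CPM at 12 weeks and 1.29, 2.66 and 3.74 CPM at 2 weeks. The 12-week values were close together and below all 2-week values, of which library 1 was again the lowest. Its log2 fold change was -1.59 ± 0.31, with a DESeq2 adjusted p of 0.00076, and it was -0.59 without 2-week libraries 2 and 4. With 1 library left out its edgeR adjusted p was 0.0085 without 2-week library 1 and 0.159 to 0.756 without each of the others. Cyp4a12a, a fatty acid hydroxylase of male liver, was at 0, 0.0556 and 0 CPM at 12 weeks and at 0, 0.16 and 1.74 CPM at 2 weeks. DESeq2 called it (adjusted p 0.0318), with library 4 far the highest and library 1 overlapping the 12-week values.

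Other male-biased genes were lower without a call by either tool. Serpina3k, a secreted serine protease inhibitor, averaged 3764 ± 760 CPM at 12 weeks and 6933 ± 1507 CPM at 2 weeks (SD, n = 3 each), with no overlap and a log2 fold change of -0.88 ± 0.24. Elovl3, a fatty acid elongase, averaged 2.46 ± 0.722 CPM at 12 weeks and 6.48 ± 1.32 CPM at 2 weeks, also with no overlap. Some members showed no such difference. Mup20, which encodes the male pheromone darcin, had a log2 fold change of 0.015 ± 0.28 with overlapping values.

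Most of the MUP family followed the male-biased list. The genes are tandem copies on chromosome 4. Of 38 Mup genes and pseudogenes tested, 21 had every 12-week value below every 2-week value (9.01% of all genes) and 0 the reverse (8.37%). The median log2 fold change of the 38 was -1.41. Some of the 38 were at the floor. Mup-ps8 was at 0 CPM in all 6 libraries, and Mup-ps17 and Mup-ps21, which are among the 21, reached 0.116 CPM at most. Summed over the family, the level was 2685, 4885 and 2041 CPM in 12-week libraries 5, 7 and 8 and 6650, 9573 and 10330 CPM in 2-week libraries 1, 2 and 4. The sums did not overlap, and they averaged 3204 ± 1491 CPM at 12 weeks and 8851 ± 1943 CPM at 2 weeks (SD, n = 3 each). DESeq2 called 7 of the 38, all lower (0.208% of all genes). Part of this family is also on the male-biased list, so the counts of the lists are not independent.

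The start regions of 4 of these genes are printed because the copies are so alike that counts of single genes are uncertain. The sequences are RefSeq promoter windows (GRCm38.p6, 250 bases before to 50 after the annotated start, minus strand, written along the gene), and capitals mark the letters TATATAA, which resemble the core promoter element of many genes.
Mup17, chr4:61595783-61596082: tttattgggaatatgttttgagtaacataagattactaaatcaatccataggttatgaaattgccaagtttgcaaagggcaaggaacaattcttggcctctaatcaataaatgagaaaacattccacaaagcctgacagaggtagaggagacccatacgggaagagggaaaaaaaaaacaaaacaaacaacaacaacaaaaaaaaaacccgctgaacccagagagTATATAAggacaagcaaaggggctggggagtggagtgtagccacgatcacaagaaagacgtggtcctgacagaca
Mup15, chr4:61439655-61439954: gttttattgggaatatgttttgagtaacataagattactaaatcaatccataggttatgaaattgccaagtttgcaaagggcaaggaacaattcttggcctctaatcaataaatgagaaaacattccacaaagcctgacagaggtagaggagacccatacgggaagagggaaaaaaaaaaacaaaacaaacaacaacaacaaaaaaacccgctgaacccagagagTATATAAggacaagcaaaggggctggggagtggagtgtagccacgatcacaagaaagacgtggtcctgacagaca
Mup19, chr4:61782175-61782474: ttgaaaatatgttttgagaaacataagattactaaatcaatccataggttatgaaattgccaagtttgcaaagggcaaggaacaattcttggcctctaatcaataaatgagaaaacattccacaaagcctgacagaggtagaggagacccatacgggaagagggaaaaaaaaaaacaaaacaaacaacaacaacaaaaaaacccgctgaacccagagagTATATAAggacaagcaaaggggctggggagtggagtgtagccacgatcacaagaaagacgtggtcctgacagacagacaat
Mup3, chr4:62087268-62087567: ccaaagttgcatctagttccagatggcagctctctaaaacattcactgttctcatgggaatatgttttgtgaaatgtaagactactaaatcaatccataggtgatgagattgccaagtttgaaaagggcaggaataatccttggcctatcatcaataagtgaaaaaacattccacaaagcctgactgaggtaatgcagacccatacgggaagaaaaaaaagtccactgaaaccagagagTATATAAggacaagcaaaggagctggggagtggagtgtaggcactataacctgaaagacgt

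Aligned with the Mup17 window, the Mup15 window was identical at 98.7% of 301 columns with 0 mismatches and 4 gap columns, and the Mup19 window at 97.6% of 297 columns. The Mup3 window was identical at 76.9% of 286 columns. The element TATATAA was present on one strand or the other in 3.24% of all 32851 promoter windows. In the transcripts the likeness goes further. All 31-base words of the annotated Mup15 and Mup19 transcripts also occur in transcripts of other Mup genes, as do 86.2% of those of Mup17 and 28.2% of those of Mup3. Reads of the first 3 genes can therefore be shared out among copies by the counting, and the family sum above does not depend on that.

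Mup17 had 11.1, 28.8 and 7.28 CPM at 12 weeks and 197, 289 and 436 CPM at 2 weeks, a log2 fold change of -4.29 ± 0.90 (DESeq2 adjusted p 0.000157). Mup15 had 3.34, 7.66 and 1.99 CPM at 12 weeks and 63.4, 125 and 147 CPM at 2 weeks, a log2 fold change of -4.69 ± 1.07. Mup19 had 659.6, 1588 and 792 CPM at 12 weeks and 2858, 5316 and 5976 CPM at 2 weeks, a log2 fold change of -2.22 ± 0.44 (DESeq2 adjusted p 0.000156). In all 3 genes library 7 was the highest at 12 weeks and library 1 the lowest at 2 weeks, and no values overlapped. Mup11 (-2.24 ± 0.51), Mup1 (-2.07 ± 0.48), Mup16 (-1.79 ± 0.46), Mup14 (-1.54 ± 0.40) and Mup7 (-1.31 ± 0.41) were lower without overlap as well. Mup3, the copy with the most distinct sequence of the 4 printed, had 1246, 1708 and 644 CPM at 12 weeks and 1500.3, 1737 and 1592.5 CPM at 2 weeks. Its values overlapped, and its log2 fold change was -0.42 ± 0.27.

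The female-biased list held values in both directions. Its 37 members had a median log2 fold change of -0.07, 1 member was higher without overlap (8.37% of all genes) and 3 were lower (9.01%). Cyp3a44, a steroid and drug hydroxylase of female liver, had the lowest p of all 15897 genes. It lies on chromosome 5 at 145773983 to 145805874 (minus strand) beside other Cyp3a genes. Its CPM was 160, 185 and 145 in 12-week libraries and 395, 403 and 280 in 2-week libraries. The groups were far apart compared with the spread within them, and the log2 fold change was -1.14 ± 0.19 (95% interval -1.54 to -0.74). The DESeq2 adjusted p was 1.13e-05, and with 1 library left out the edgeR adjusted p was 0.0482 without 2-week library 4 and 0.103 to 0.468 without each of the others. Without 2-week libraries 2 and 4 the log2 fold change was -1.28.

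Its neighbours varied more. Cyp3a41b had 21, 156 and 156 CPM at 12 weeks and 617, 277 and 275 CPM at 2 weeks, with a log2 fold change of -1.81 ± 0.75. Cyp3a41a shares 99.9% of its 31-base words with other Cyp3a transcripts and Cyp3a41b 95.9%, so the split between them is uncertain. Summed, the pair had 1361, 2826 and 2508 CPM at 12 weeks and 3959, 3183 and 2933 CPM at 2 weeks, which do not overlap. Cyp3a44 shares 37.9% of its words. Cyp3a16 had overlapping values and a log2 fold change of -0.86 ± 0.44.

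Cyp2b13, another female-biased P450, was the member that was higher without overlap, with 202, 256 and 180 CPM at 12 weeks and 121, 127 and 151 CPM at 2 weeks. Its log2 fold change was 0.68 ± 0.23 (edgeR adjusted p 0.603). Among sulfotransferases, which attach sulfate to steroids and drugs, 4 of 13 members tested were higher without overlap (8.37% of all genes) and 1 lower (9.01%), and the list median was 0.17. The lower one was Sult5a1, with 3.21, 6.11 and 9.88 CPM at 12 weeks and 14.1, 18.8 and 11.9 CPM at 2 weeks. Sult3a1 had 22.8, 59.3 and 26.7 CPM at 12 weeks and 58.7, 82.1 and 55.4 CPM at 2 weeks, with overlap.

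Of the growth hormone and IGF axis, 0 of 21 members were higher (8.37% of all genes) and 5 lower (9.01%) without overlap, and the median was -0.17. Igf1, the growth factor that the liver secretes under growth hormone, had 597, 581 and 519 CPM at 12 weeks and 790, 686 and 714 CPM at 2 weeks. Its values did not overlap, and the log2 fold change was -0.37 ± 0.17 (unadjusted p 0.045, edgeR adjusted p 0.885). Igfbp3, which binds IGF1 in blood, had 22.6, 21.7 and 21.1 CPM at 12 weeks and 22.7, 30.1 and 34.3 CPM at 2 weeks. Igfbp1, an IGF-binding protein that is repressed by insulin, averaged 351 ± 129 CPM at 12 weeks and 666 ± 96.9 CPM at 2 weeks, also without overlap. The receptor Ghr and the transducers Jak2, Stat5a and Stat5b had overlapping values, with estimates from -0.25 to -0.13.

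Immediate early genes are switched on within minutes by stress, growth factors or handling of tissue, and many encode transcription factors. None of the 19 tested passed edgeR's test. In 12 of them all 12-week values were below all 2-week values (9.01% of all genes) and in 0 above (8.37%), and the list had the lowest median of the 38 lists, -1.24. Fos, a subunit of the factor AP-1, had 1.26, 2.27 and 1.56 CPM at 12 weeks and 17.4, 15.9 and 5.51 CPM at 2 weeks. Its log2 fold change was -2.93 ± 0.76, and it was the one member that DESeq2 called (adjusted p 0.0219). Jun, its partner, had 25.4, 21.9 and 26.1 CPM at 12 weeks and 52.2, 76.9 and 46.5 CPM at 2 weeks. Atf3 (-2.29 ± 0.75), Egr1 (-2.22 ± 0.82), Btg2 (-1.89 ± 0.62), Junb (-1.35 ± 0.61), Zfp36 (-1.17 ± 0.33) and Ier2 (-1.10 ± 0.38) did not overlap either.

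The promoter windows of Fos and Btg2 are shown because many immediate early genes answer to cAMP through elements of the form TGACGTCA or its shorter core TGACG. The windows are RefSeq, GRCm38.p6, written along the gene. Capitals mark TGACGTCA in Btg2 (minus strand) and TGACG in Fos (plus strand), each searched on both strands. The shorter motif is contained in the longer.
Btg2, chr1:134079106-134079405: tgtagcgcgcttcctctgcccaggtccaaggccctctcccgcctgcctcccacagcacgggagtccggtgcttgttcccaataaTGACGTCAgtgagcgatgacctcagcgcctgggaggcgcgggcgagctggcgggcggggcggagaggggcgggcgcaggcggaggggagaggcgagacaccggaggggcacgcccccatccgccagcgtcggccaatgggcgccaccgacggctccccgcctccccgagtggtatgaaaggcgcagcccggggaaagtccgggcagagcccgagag
Fos, chr12:85473640-85473939: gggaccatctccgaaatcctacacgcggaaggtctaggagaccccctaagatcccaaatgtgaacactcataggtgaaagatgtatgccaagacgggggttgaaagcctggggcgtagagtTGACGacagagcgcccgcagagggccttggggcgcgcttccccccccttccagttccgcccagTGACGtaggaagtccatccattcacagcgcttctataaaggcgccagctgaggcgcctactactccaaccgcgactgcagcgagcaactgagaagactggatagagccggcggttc

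Of the 16 immediate early genes with a window, 2 held TGACGTCA (Btg2 and Dusp1) and 10 held TGACG. The motifs were in 1.79% and 20.8% of all single windows. A gene was counted if any of its windows held the motif, so counts of genes and shares of windows are unlike measures. Dusp1, a phosphatase that holds the motif, had a log2 fold change of 0.16 ± 0.45 with overlapping values. The matches are letters in a window, not sites.

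Btg2, which restrains cell division and is also on the p53 list, had 13, 22.3 and 11.9 CPM at 12 weeks and 53.6, 70 and 51 CPM at 2 weeks. Of the p53 and senescence list 1 of 16 members was higher (8.37% of all genes) and 5 lower (9.01%) without overlap, with a median of -0.33. Gadd45b, a stress-induced gene of that list, had 6.18, 2.87 and 4.35 CPM at 12 weeks and 8.43, 16.4 and 8.18 CPM at 2 weeks. Irs2, the insulin receptor substrate that fasting raises, was on the gluconeogenesis list. It had 28.5, 49.4 and 33.1 CPM at 12 weeks and 54.3, 142 and 127 CPM at 2 weeks, a log2 fold change of -1.54 ± 0.43 (DESeq2 adjusted p 0.0408). Libraries 2 and 4 were the high ones at 2 weeks, and without them the log2 fold change was -0.55 (edgeR adjusted p 1).

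**Figure D2:**
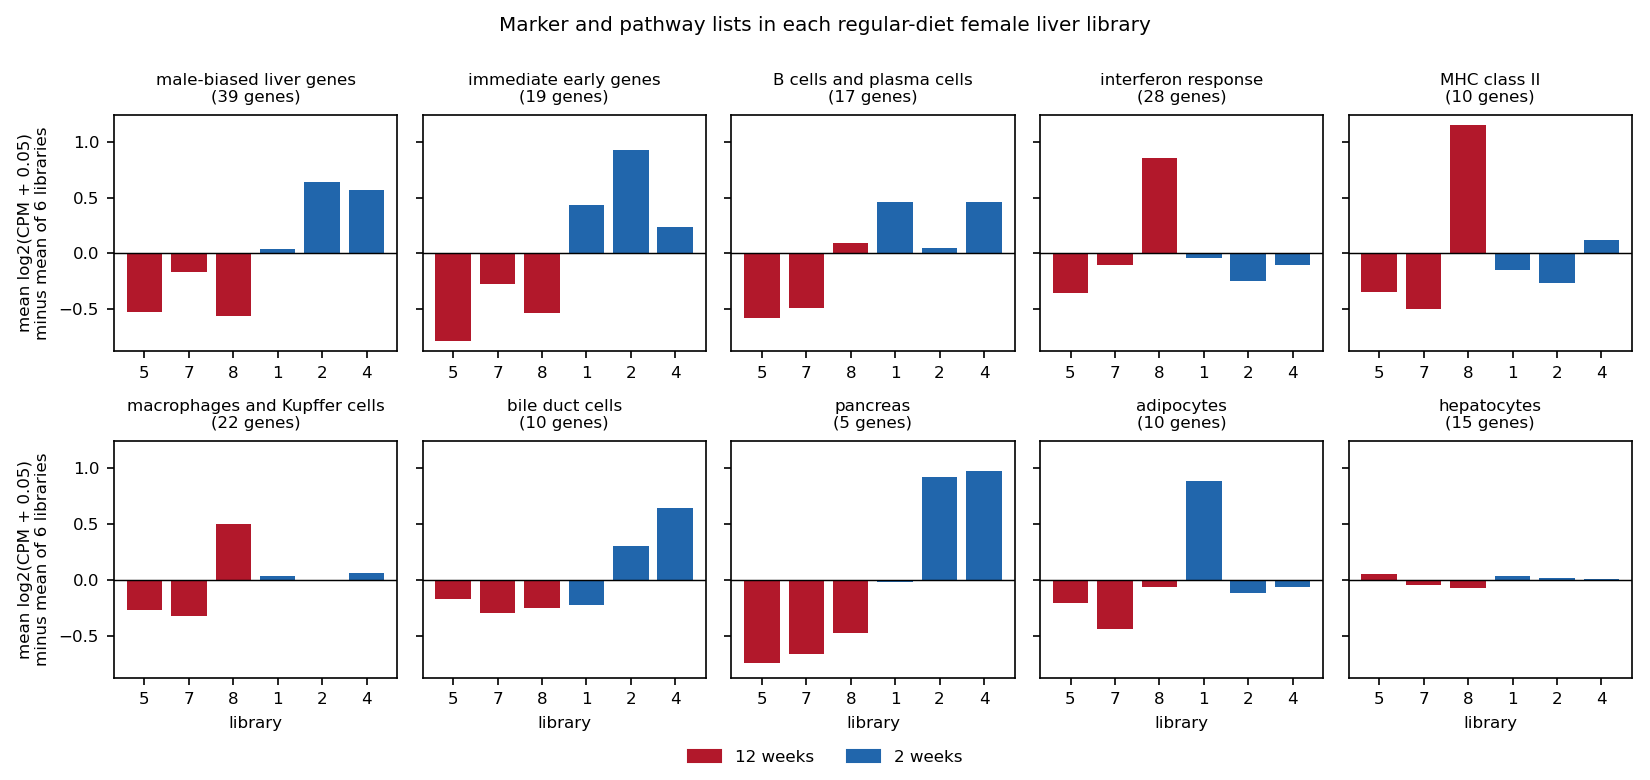
Mean log2(CPM + 0.05) of 10 gene lists in each library minus the mean of the 6 libraries, with 12-week libraries 5, 7 and 8 in red left of 2-week libraries 1, 2 and 4 in blue. Male-biased and immediate early lists are below the mean in all 3 12-week libraries, the interferon and MHC class II lists are highest in library 8, and the hepatocyte list is nearly flat.

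Of 17 B cell and plasma cell genes 10 were lower at 12 weeks (9.01% of all genes) and 0 higher (8.37%) without overlap, with a median of -0.74. No member passed edgeR's test, and DESeq2 called Ighd alone. The summed level of the list overlapped, at 124, 108 and 230.2 CPM at 12 weeks and 211, 114 and 182 CPM at 2 weeks, with the highest sum in 12-week library 8. In whole tissue, fewer cells of a type and less RNA per cell cannot be told apart. Ighd, the heavy chain of the IgD receptor on naive B cells, had 1.26, 1.43 and 1.42 CPM at 12 weeks and 3.18, 3.08 and 4.53 CPM at 2 weeks. Its log2 fold change was -1.39 ± 0.29 (DESeq2 adjusted p 0.00191). The receptor signalling subunits Cd79a (-0.76 ± 0.28) and Cd79b (-0.97 ± 0.35) and the surface protein Ms4a1 (-0.74 ± 0.28) were lower without overlap. Ighm had 9.57, 15.1 and 9.79 CPM at 12 weeks and 35.1, 17 and 17.8 CPM at 2 weeks. The plasma cell genes Igha (0.16 ± 0.45) and Igj (0.11 ± 0.32) had overlapping values. Of T and NK cell genes 0 of 20 were higher and 2 lower without overlap, with a median of -0.07, and the lower count is near the 9.01% of all genes. Library 8 at 12 weeks was the highest of the 6 libraries for 10 of these 20 genes. Without it their median was -0.45.

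Interferon and antigen-presentation genes show how 1 library can carry a list. Library 8 at 12 weeks was the highest of the 6 for 23 of 28 interferon-response genes, 7 of 10 MHC class II genes and 19 of 22 macrophage and Kupffer cell genes. The summed level of the interferon list was 2908 CPM in library 8 and 966 to 1217 CPM in the other 5. The MHC class II list summed to 857 CPM in library 8 and 214 to 268 CPM elsewhere. Igtp, an interferon-induced GTPase, had 48.5, 56.8 and 342 CPM at 12 weeks and 60.4, 50.6 and 47.5 CPM at 2 weeks. H2-Aa, an MHC class II chain, had 39.7, 36 and 170 CPM at 12 weeks and 41.5, 33.9 and 40.6 CPM at 2 weeks. The log2 fold changes were 1.5 ± 0.49 for Igtp and 1.08 ± 0.43 for H2-Aa with library 8, and -0.0044 and -0.032 without it. Likewise the medians were 0.25 for the interferon list and 0.78 for MHC class II with library 8, and -0.16 and -0.15 without it. For macrophage genes the median was 0.05 with it and -0.28 without it.

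Some epithelial genes were high in libraries 2 and 4 at 2 weeks. Krt19, a keratin of bile ducts, had 0.811, 0.932 and 1.18 CPM at 12 weeks and 1.11, 4.51 and 11.4 CPM at 2 weeks. Its DESeq2 adjusted p was 0.0194, and only libraries 2 and 4 were high. Muc1, a cell-surface mucin, had 0.492, 0.709 and 1.24 CPM at 12 weeks and 0.994, 4.7 and 8.81 CPM at 2 weeks. Of 10 bile duct markers tested 4 were highest in libraries 2 and 4, whose sums were 158 to 165 CPM against 110 to 136 CPM in the other 4 libraries. The marker Krt7 ran from 0.529 to 1.9 CPM over the 6 libraries and was highest in libraries 2 and 4. Without TMM scaling it was at 1.25 and 2.01 CPM there and at 0.563 to 1.15 CPM in the other 4. Sox9 ran from 2.07 to 3.24 CPM and was highest in 12-week library 5, and Epcam was listed at 0 in all 6.

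Some genes were almost confined to those libraries among the 6. The mucosal protein Dmbt1 was at 0 CPM in libraries 5, 7, 8 and 1 and at 60.6 and 191 CPM in libraries 2 and 4. Ctrb1, a pancreatic protease precursor, was at 0 CPM in the same 4 libraries and at 1.56 and 2.89 CPM in libraries 2 and 4. Of 5 pancreas list genes tested 2 were lower at 12 weeks without overlap (9.01% of all genes) and 0 higher (8.37%). The list summed to 3.05 and 4.21 CPM in libraries 2 and 4 against 0.985 to 1.72 CPM in the other 4. Without TMM scaling, the acinar enzyme genes Cpb1 and Cela2a ran from 0.174 to 0.447 CPM and from 0.581 to 0.869 CPM over the 6 libraries and were not highest in libraries 2 and 4. Ins1 and Ins2 were listed at 0 in all 6 libraries and Cpa1 was at 0.0509 CPM (without TMM scaling) in library 8 and at 0 in the rest. Shh, a secreted morphogen, had 0.0579, 0.0974 and 0.0474 CPM at 12 weeks and 0.0994, 1.48 and 2.54 CPM at 2 weeks. Flrt3 and Gpr128 had the same 2 high libraries. Dmbt1, Ctrb1, Shh, Flrt3 and Krt19 are among the 58 genes that DESeq2 called.

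Without libraries 2 and 4 the male-biased median was -0.33, the MUP median -1.15, the immediate early median -0.99 and the B cell median -0.82, each over 1 remaining 2-week library. The part of those transcripts in the male-biased difference was not tested beyond that. Library 1, the 2-week library with the lowest Hsd3b5 and MUP values, instead carried adipocyte transcripts. Cfd, a fat cell protease, was at 0 CPM in all 12-week libraries and at 3.32, 0.204 and 0.0847 CPM at 2 weeks. Adipoq had 0.0145, 0.0417 and 0.0118 CPM at 12 weeks and 0.824, 0.0727 and 0.133 CPM at 2 weeks, while Plin1 was listed at 0 in all 6. Of 10 adipocyte markers tested 4 were highest in library 1, whose sum was 1867 CPM against 1055 to 2113 CPM in the other 5 libraries. The part of these transcripts in the results was not tested.

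**Figure D3:**
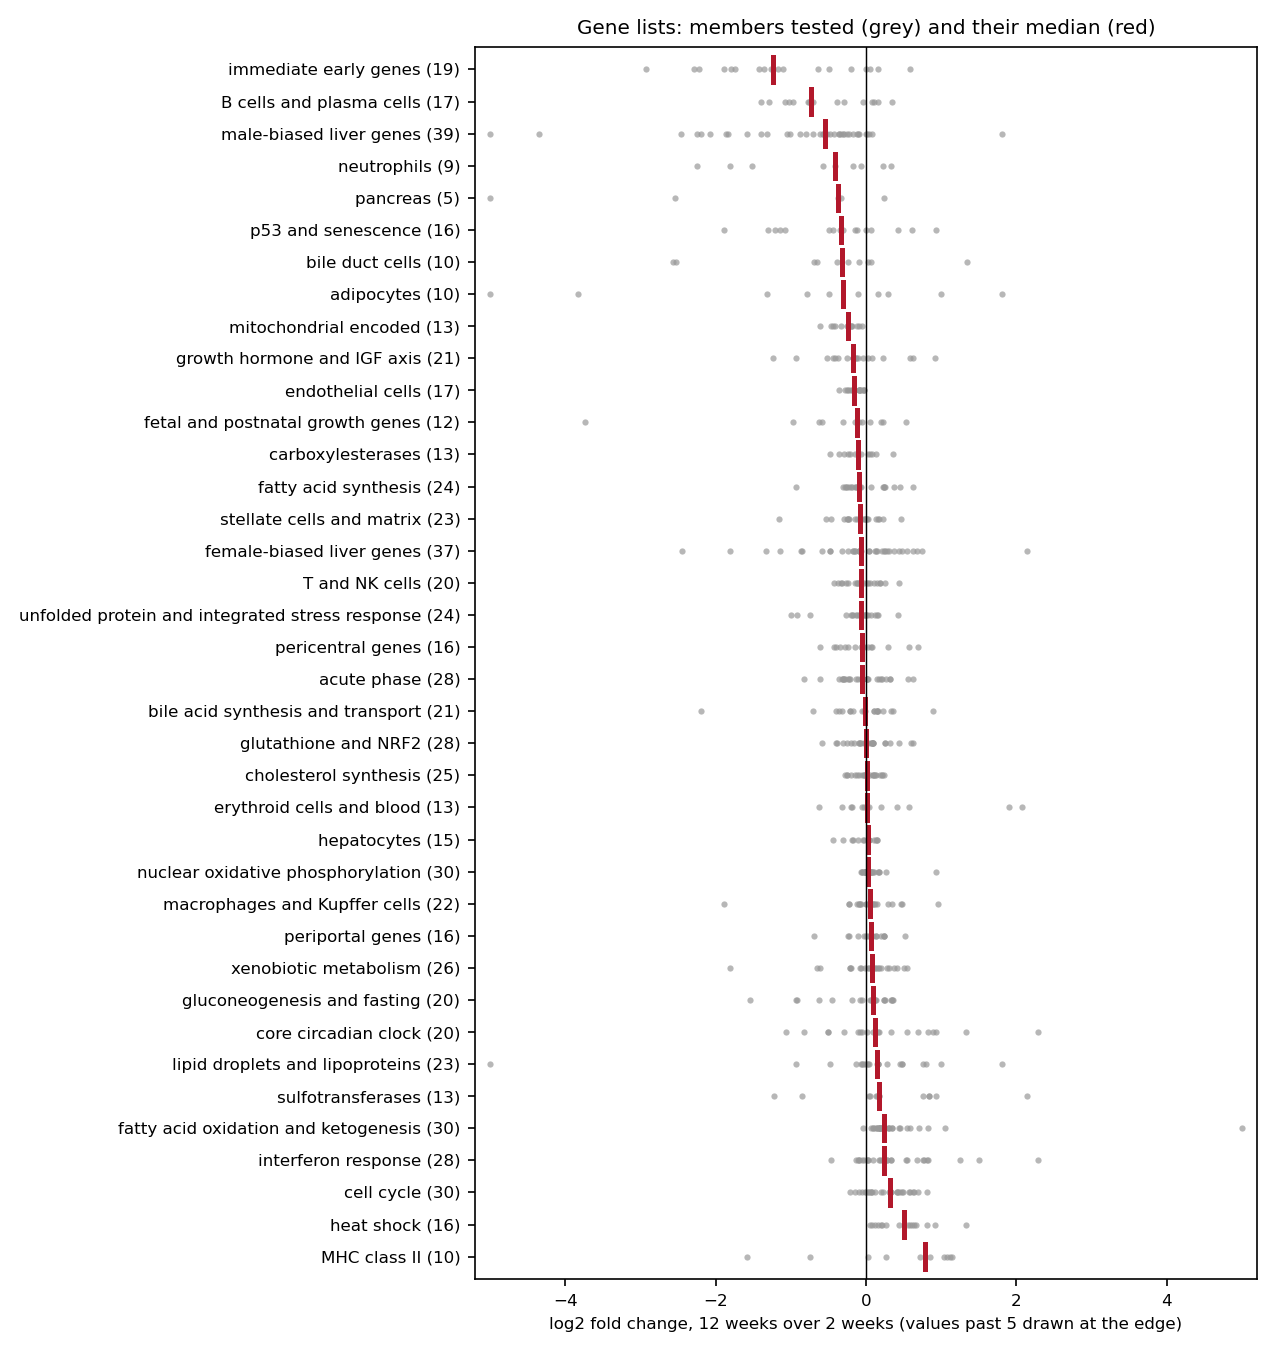
Log2 fold change, 12 weeks over 2 weeks, of the tested members (grey) of 38 gene lists and their median (red), with the number tested in brackets values past 5 drawn at the edge, and 2 members counted but not drawn. Immediate early genes have the lowest median (-1.24) and MHC class II genes the highest (0.78), and most lists centre near 0.

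Metabolic lists had medians near 0. Of 25 genes of cholesterol synthesis 0 were higher (8.37% of all genes) and 0 lower (9.01%) without overlap, the median was 0.01, and 22 had 95% intervals within a log2 window of 1. Of 24 genes of fatty acid synthesis 1 was higher and 0 lower. That gene was Fads2, a fatty acid desaturase, with 763, 749 and 965 CPM at 12 weeks and 613, 673 and 622 CPM at 2 weeks (0.38 ± 0.17). Bile acid genes split 2 higher and 3 lower of 21, and xenobiotic genes 3 higher and 3 lower of 26, shares near those of all genes. Cyp1a2, a drug-metabolising P450 of pericentral hepatocytes, had 398, 450 and 375 CPM at 12 weeks and 488, 731 and 656 CPM at 2 weeks (-0.62 ± 0.18). Oat, an ornithine aminotransferase also made by pericentral hepatocytes, had 711, 1014 and 1052 CPM at 12 weeks and 449, 645 and 629.9 CPM at 2 weeks (0.69 ± 0.21).

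Of 30 genes of fatty acid oxidation and ketogenesis 8 were higher (8.37% of all genes) and 0 lower (9.01%) without overlap, 29 had positive estimates, and the median was 0.24. Neither tool called a member, and 2 had an unadjusted p under 0.05. Of the 30 members, 21 had intervals within a log2 window of 1, and the others were measured less closely or changed more. Acadm, a medium-chain dehydrogenase, had 266, 238 and 289 CPM at 12 weeks and 217, 222 and 212 CPM at 2 weeks. Eci1 had a far larger and imprecise estimate, with a log2 fold change of 7.54 ± 3.2. It was near the floor in the RD male and HFD female livers, at 0 to 0.779 CPM. Angptl4, a lipase inhibitor raised by fasting, had the lowest p of the list. It had 208, 92.3 and 178 CPM at 12 weeks and 94.2, 86.2 and 90.2 CPM at 2 weeks, a log2 fold change of 0.82 ± 0.28, and library 7 overlapped. Library 7 was also the lowest 12-week library for Plin4, a lipid droplet protein, with 31.1, 2.82 and 38.9 CPM at 12 weeks and 3.72, 10.2 and 6.88 CPM at 2 weeks. Apoa5, which promotes clearance of triglyceride, had 1382, 1157 and 1079 CPM at 12 weeks and 734, 872 and 992 CPM at 2 weeks (0.48 ± 0.19), without overlap.

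Heat shock genes, which encode chaperones, had a median of 0.50. All 16 estimates were positive, and 3 members were higher without overlap (8.37% of all genes). Dnajb1 had 33.7, 17.3 and 28.5 CPM at 12 weeks and 14.6, 15.5 and 15.2 CPM at 2 weeks (0.81 ± 0.32), and Hspa8 (0.66 ± 0.28) and Hsph1 (0.91 ± 0.54) were the others. The median was 0.12 without 2-week libraries 2 and 4. Transcripts of the mitochondrial genome took 7.33 to 8.5% of counts at 12 weeks and 8.81 to 9.75% at 2 weeks. Of its 13 protein-coding genes 9 were lower (9.01% of all genes) and 0 higher (8.37%) without overlap, with a median of -0.24. Nuclear genes of oxidative phosphorylation had a median of 0.03, and 29 of 30 had intervals within a log2 window of 1.

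Among single genes outside the lists, chosen after their values were seen, Serpina7 had the largest positive estimate among the 10 lowest p values. It encodes thyroxine-binding globulin. It had 99.2, 48.1 and 81.9 CPM at 12 weeks and 29.1, 12.9 and 26.6 CPM at 2 weeks, a log2 fold change of 1.74 ± 0.38 (DESeq2 adjusted p 0.00158). Pcbp4, an RNA-binding protein, had 19.8, 16.9 and 17.2 CPM at 12 weeks and 11.8, 11.1 and 10.8 CPM at 2 weeks (0.68 ± 0.13). Its values were tight in both groups. Cyth1, an exchange factor for ARF GTPases (0.62 ± 0.14), Vamp2, a vesicle fusion protein (0.43 ± 0.10), and Commd9 (0.60 ± 0.14) were likewise higher without overlap. Sort1, the sorting receptor sortilin that acts in lipoprotein secretion, had 14.9, 14.2 and 16.4 CPM at 12 weeks and 33.8, 27.1 and 24.5 CPM at 2 weeks (-0.91 ± 0.18, DESeq2 adjusted p 0.00279).

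The same times can be set beside each other in females on the HFD and in males on the RD. These comparisons share no library with the one described here, but they share its 2 cohorts. EdgeR called 3 genes in HFD females (0.0189%) and 37 in RD males (0.233%). Of those 37 genes 8 encode pancreatic digestive enzymes such as amylases and elastases, all lower at 12 weeks. Cela1, one of them, had 0.223, 0.223 and 0 CPM in the 12-week males and 22.2, 0.662 and 713 CPM in 2-week males 6, 7 and 8. A direct test of the difference called 0 genes between RD females and RD males and 0 between RD females and HFD females (edgeR). At an unadjusted p under 0.05 there were 975 genes (6.13%) for the difference from RD males and 544 (3.42%) for that from HFD females. DESeq2 called 52 (0.327%) for the difference from RD males and 5 (0.0315%) for that from HFD females.

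**Figure D4:**
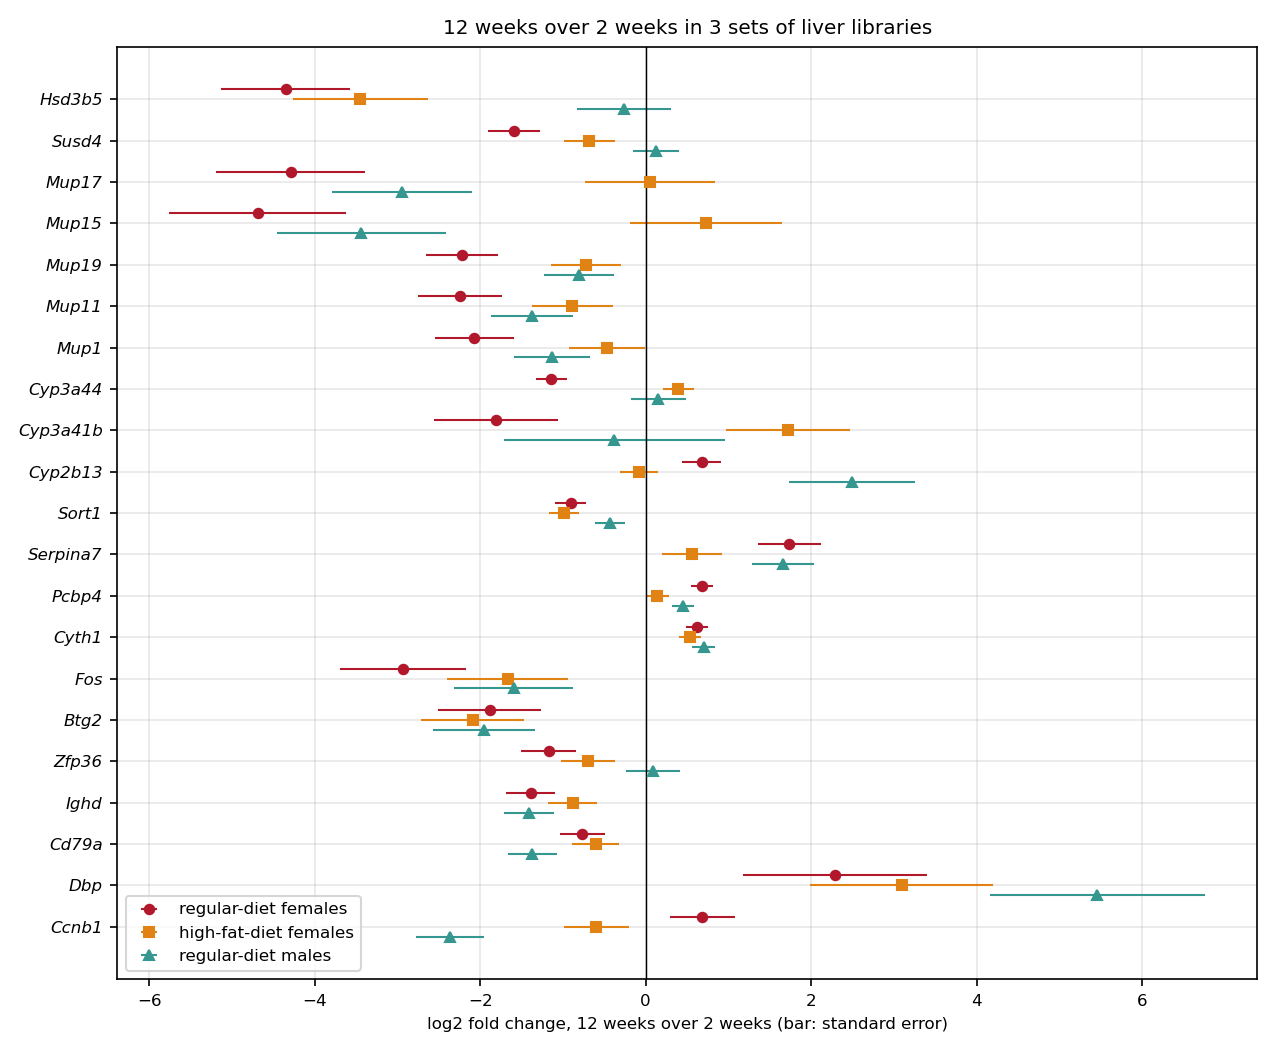
Log2 fold change, 12 weeks over 2 weeks, with its standard error, of 21 genes in RD females (circles), HFD females (squares) and RD males (triangles). Hsd3b5 is low in both female sets, and Sort1 is lower in both female sets and in RD males. Mup17 and Mup15 are low in RD females and RD males, and Ccnb1 is low in RD males and positive in RD females.

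Among male-biased genes, those without overlap and lower at 12 weeks numbered 14 of 39 in RD females, 18 in HFD females (7.22% of all genes) and 15 in RD males (11.2%). Hsd3b5 in HFD females had a log2 fold change of -3.45, and in RD males one of -0.26. Sort1 had -0.98 in HFD females and -0.43 in RD males. Mup17 and Mup15 had 0.05 and 0.73 in HFD females and -2.95 and -3.44 in RD males. For these 2 genes the difference between RD and HFD females was -4.34 and -5.42, and neither passed (the lower edgeR adjusted p was 0.998, for Mup15). In the immediate early list 12 of 19 genes were lower without overlap in RD females, 11 in HFD females and 2 in RD males. Of the B cell list the counts were 10 of 17 in RD females, 2 in HFD females and 8 in RD males. Of 28 interferon-response genes 1 was lower without overlap in RD females, where library 8 was high, 17 in HFD females and 23 in RD males.

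Cyp3a44 had estimates of opposite sign on the 2 diets in females. Its log2 fold change was 0.39 in HFD females, where every 12-week value was above every 2-week value, and the difference from RD females was -1.53 (edgeR adjusted p 0.2). Of cholesterol synthesis genes 14 of 25 were higher without overlap in HFD females (7.08% of all genes) and 1 in RD males (10.6%), against 0 in RD females. Of cell cycle genes 22 of 30 were lower without overlap in RD males (11.2% of all genes) and 0 in RD females (9.01%). Ccnb1, the mitotic cyclin B1, had 0.319, 0.96 and 0.699 CPM at 12 weeks and 0.383, 0.407 and 0.436 CPM at 2 weeks in RD females, a log2 fold change of 0.69 ± 0.40. In RD males it was -2.36, and the difference of 3.05 had an unadjusted p of 2.8e-05 and an edgeR adjusted p of 0.191.

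Of 20 clock genes 12 were higher without overlap in RD males (10.6% of all genes), 3 in HFD females (7.08%) and 1 in RD females (8.37%). In RD females 1 was lower without overlap (9.01%). Dbp, an output transcription factor that cycles over the day, had 1.03, 15.7 and 5.08 CPM at 12 weeks and 0.312, 1.27 and 2.84 CPM at 2 weeks in RD females (2.29 ± 1.11). Its estimate was 5.46 in RD males. Per3 (1.33 ± 0.70) and Tef (0.89 ± 0.43) had positive estimates with overlap, and Nfil3, a repressor with the opposite phase to Dbp, had 25.1, 20.6 and 16.2 CPM at 12 weeks and 42.4, 52.5 and 34.5 CPM at 2 weeks (-1.06 ± 0.38). The hour of tissue collection is not stated in the labels, and its part in these values was not tested.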

How the data were processed

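Liver RNA was sequenced from 200 ng of total RNA as strand-specific poly(A) libraries, per the labels' protocols. The deposited table holds expected counts for 30055 gene symbols in 48 libraries. Per the submitters' processing notes, the tools were kallisto, DESeq2 and edgeR and the build GRCm38, with no version given. Of the nonzero values in the 6 libraries 0.092% were whole (within 1e-06), so the expected counts deposited by the authors were rounded first.

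The 24 liver libraries (8 groups of 3) were fitted together with edgeR 4.0.16 (quasi-likelihood, robust, TMM scaling, filterByExpr with a minimum count of 10 and total of 15) in R 4.3.3, with Benjamini-Hochberg adjustment over 15897 genes and a threshold of 0.05. Group libraries were matched by label. CPM values use the TMM-scaled library, and no overlap means that all 3 values of one time lie beyond all 3 of the other. The SE is the fold change divided by the root of F. List scores are means of log2(CPM + 0.05). DESeq2 1.42.0, another scaling, no filter, a non-robust fit, the groups alone and each library left out were alternatives. Scripts were tested on simulated data. Positions are from GENCODE on GRCm38 (one position for 95.53% of tested symbols), sequences from RefSeq.

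The comparison and its 38 lists (744 symbols, 742 found, 721 passing the filter) were chosen with earlier results of these data known. As no gene was called, up to 2 genes per list were named by lowest p, with the genes of most extreme interaction. Other named genes were chosen after their values were seen. Results of some genes are not reported here. Depth was 65.71 to 78.27 M counts per library.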

Additional observations from a re-analysis of the deposited data

Results flagged for a closer look

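Among the 127 genes named by the rules above or chosen after their values were seen, 8 had every 12-week library on one side of every 2-week library in RD females and on the other side in a second set of libraries. Over all 15897 genes the same held for 160 genes (1.01%) against RD males and 50 (0.315%) against HFD females. The named genes include those picked for the most extreme differences between these same sets. Their count therefore cannot be read as an excess over the shares of all genes. None of these differences passed edgeR's test of the difference (Benjamini-Hochberg adjustment). Against RD males, Ccnb2, a mitotic cyclin, had a log2 fold change of 0.587 in RD females and -1.31 in RD males (adjusted p 0.191). Fads2, a desaturase, had 0.377 in RD females and -0.248 in RD males (adjusted p 0.739). Commd9 had 0.597 in RD females and -0.193 in RD males (adjusted p 0.286). Glod5 had -3.03 in RD females and 4.53 in RD males (adjusted p 0.191). Its values in RD males were near 0, at 0.0558, 0.0372 and 0.0273 CPM at 12 weeks and 0, 0 and 0 CPM at 2 weeks. Shh, which was high in 2-week libraries 2 and 4 only among the RD females, had -4.32 in RD females and 1.73 in RD males (adjusted p 0.286). In RD males Shh was also low, at 0.167, 0.137 and 0.205 CPM at 12 weeks and 0.0276, 0.113 and 0.0141 CPM at 2 weeks.

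Against HFD females, Cyp3a44 had a log2 fold change of -1.14 in RD females and 0.394 in HFD females (adjusted p 0.2), and DESeq2 called this difference. Cyp1a2 had -0.618 in RD females and 0.573 in HFD females (adjusted p 0.998), and DESeq2 called it too. Cyp3a41b, whose reads are largely shared with a near copy, had -1.81 in RD females and 1.72 in HFD females (adjusted p 1).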

How the results depend on the processing

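The count of genes past the threshold was 0 in the comparison of the 2 times in RD females under another scaling, without the filter, without the robust fit and with the 2 groups alone, and 58 with DESeq2. With 1 library left out it ran from 0 to 3. Without 2-week library 1 the 3 genes were Flrt3, Hsd3b5 and Susd4, and without 2-week library 4 the 1 gene was Cyp3a44. Without 2-week libraries 2 and 4, an alternative chosen after seeing the data, it was 1 (Ppard). The comparison in RD males gave 282 genes with DESeq2 and 82 with its groups alone, and that in HFD females 93 with DESeq2 and 0 without the filter or with its groups alone. Of the list members DESeq2 called 13, and edgeR 0 to 2 with 1 library left out. The difference from RD males gave 52 genes with DESeq2 and 0 to 7 with 1 library left out. The difference from HFD females gave 5 genes with DESeq2. Of 1664 pairs of a named gene and an alternative, 1625 kept their direction and side of the threshold, 34 passed it and 5 turned round. Without 2-week libraries 2 and 4 the log2 fold change was 0.29 for Acta2 and 1.44 for Flrt3. Without 12-week library 8 it was -0.0044 for Igtp, -0.032 for H2-Aa and -0.17 for Mpeg1, where the highest values with 1 library left out were 1.92 for Igtp, 1.44 for H2-Aa and 0.75 for Mpeg1. The cause of the differences between tools was not tested. No paired analysis was possible because the 2 groups share no replicate number. With 3 libraries a group, changes in genes below a mean log2 CPM of 1 were measured with less precision than in the others.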
